A study of Mus musculus with 6 samples.

Results

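The genes of fatty acid synthesis and desaturation were followed in mouse small intestine as 10 members chosen by symbol: the regulator Srebf1, the synthesis enzymes Acly, Acaca and Fasn, the elongases Elovl5 and Elovl6, and the desaturases Scd1, Scd2, Fads1 and Fads2. All 10 are among the 33017 genes of the deposited count table, and all 10 passed the filter on low counts that left 15904 genes for testing. Bulk poly-A RNA had been sequenced from 3 libraries labelled model and 3 labelled control, all described as small intestine that was frozen in liquid nitrogen. The title of the series names simulated microgravity, radiation and a compound preparation, and its design text speaks of the effects of a dual factor, but the labels give a library only as model or control. They give no strain, age, sex, dose, exposure time or intestinal segment, nor whether the model mice had received the compound. They also do not say that the libraries came from separate animals, so the p-values below measure the spread between these libraries only.

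Fatty acids are built in the cytosol from citrate that leaves the mitochondria: ATP citrate lyase (Acly) releases acetyl-CoA, acetyl-CoA carboxylase (Acaca) turns it into malonyl-CoA, and fatty acid synthase (Fasn) joins these units into palmitate. Elovl6 lengthens palmitate, the stearoyl-CoA desaturases Scd1 and Scd2 place the first double bond in saturated chains, and Fads1, Fads2 and Elovl5 turn dietary essential fatty acids into longer polyunsaturated ones. Most of these genes are known targets of SREBP-1, the transcription factor that Srebf1 encodes and that is released from a membrane-bound precursor. Absorptive enterocytes, which package dietary fat for export, and fat cells both use this pathway.

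Promoter windows from RefSeq (build GRCm38.p6, 250 bases before to 50 bases after a start site) matched 7 of the 10 members. Those of Fasn (chr11:120824498-120824797, minus strand), Elovl5 (chr9:77917115-77917414, plus strand) and Elovl6 (chr3:129532136-129532435, plus strand) are printed because the first 2 genes were highest, and the third lowest, in the same library, control 3. Each is written 5' to 3' on the gene's strand, and capitals mark every match, on either strand, to CCAAT, to the E-box CACGTG, to the GC box CCGCCC or to the SREBP consensus TCACNCCAC.
Fasn: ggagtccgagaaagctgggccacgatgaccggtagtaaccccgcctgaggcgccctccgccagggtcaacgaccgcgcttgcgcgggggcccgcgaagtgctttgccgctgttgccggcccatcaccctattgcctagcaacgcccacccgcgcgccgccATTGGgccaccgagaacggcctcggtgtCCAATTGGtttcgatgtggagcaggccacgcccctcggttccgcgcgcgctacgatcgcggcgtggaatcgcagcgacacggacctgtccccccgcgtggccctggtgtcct
Elovl5: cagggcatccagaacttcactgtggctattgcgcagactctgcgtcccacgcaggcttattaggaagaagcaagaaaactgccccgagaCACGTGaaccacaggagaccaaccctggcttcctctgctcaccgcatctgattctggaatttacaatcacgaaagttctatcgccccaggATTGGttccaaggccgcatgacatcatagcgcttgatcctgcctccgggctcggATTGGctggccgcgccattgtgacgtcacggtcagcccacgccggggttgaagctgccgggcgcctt
Elovl6: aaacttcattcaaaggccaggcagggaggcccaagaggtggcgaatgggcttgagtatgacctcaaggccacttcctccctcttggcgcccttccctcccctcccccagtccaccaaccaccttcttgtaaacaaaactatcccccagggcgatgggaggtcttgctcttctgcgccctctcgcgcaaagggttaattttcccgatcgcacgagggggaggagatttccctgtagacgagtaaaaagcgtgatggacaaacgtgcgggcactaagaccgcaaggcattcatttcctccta
The Fasn window holds 3 CCAAT matches, the first at position -90 from the start site, and the other 2 overlap each other. The Elovl5 window holds 1 E-box at -161 and 2 CCAAT matches, the first at -71. The Elovl6 window holds no match to any of the 4 motifs. Windows not printed include those of Acly, also highest in control 3, and of Srebf1, also lowest there. The Acly window holds 4 GC box matches and 1 CCAAT match. For Srebf1, the windows of start sites 1 and 3 hold 1 CCAAT match each, and those of start sites 2 and 3 hold GC boxes. A relation between these motifs and the levels in control 3 was not tested. CCAAT is in 37.4% of all 32851 windows, the E-box in 7.15%, the GC box in 35.7% and the SREBP consensus in 1.24%. Over the 7 members with a window, 4 hold CCAAT, 3 the GC box, 1 the E-box and 0 the SREBP consensus in at least 1 of their windows. These are counts of members, with 9 windows among them, whereas the percentages are of windows, so they are not like for like. None of these windows of 300 bases holds the letters of the SREBP consensus, which says nothing of binding elsewhere.

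Library totals ran from 35007515 to 45285564 counts, and the 10 members took 0.0726%, 0.118% and 0.0774% of them in model 1 to 3, against 0.135%, 0.125% and 0.218% in control 1 to 3. All levels below are CPM, counts relative to the TMM-scaled total of the library. Markers showed that the libraries were not alike in what they held. Ileum markers summed to 28.5 to 49.8 CPM in the model libraries and to 39.3 and 23.9 CPM in control 1 and 2, but to 2180 CPM in control 3, where Fabp6, the ileal bile acid binding protein, reached 1170 CPM and the bile acid transporter Slc10a2 648 CPM. Markers of the proximal intestine, led by lactase (Lct) and Fabp1, summed to 2340 to 3810 CPM in the model libraries, 4060 and 2660 CPM in control 1 and 2, and 13.7 CPM in control 3. B cell markers, led by Ighd and Cd22, were highest in model 3 (197 CPM) among the model libraries and in control 3 (322 CPM) among the controls, against 13.1 to 45.3 CPM in the other 4. Pancreas markers, led by Ctrb1 and Pnlip, summed to 5170 CPM in model 3 and to at most 10.6 CPM in any other library.

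Srebf1 showed no difference that stood out from the spread. It had 147, 117 and 109 CPM in model 1, 2 and 3, against 171, 99.7 and 79.6 CPM in control 1, 2 and 3. The controls lay both above and below all model libraries, control 1 being the highest of the 6 and control 3 the lowest. Its mean was 124 ± 19.8 CPM in the model and 117 ± 47.8 CPM in the control libraries (SD, n = 3 each), a log2 fold change of 0.09 (SE 0.31) with an adjusted p of 0.948 in edgeR's quasi-likelihood test with Benjamini-Hochberg adjustment over all tested genes. The fold change was -0.11 when libraries were scaled by their totals alone, a scaling that moved the median of all tested genes to -0.21. Its annotated exons overlap those of Rai1, on the opposite strand, by 109 bases (1.93%), and reads there cannot be told apart without a known strand setting.

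None of the 3 synthesis enzymes passed the test. Acly had 59.6, 93.8 and 81.1 CPM in model 1 to 3, against 104, 73.5 and 154 CPM in control 1 to 3. The lowest library was model 1 and the highest control 3, and control 2 lay inside the model range. Acly averaged 78.2 ± 17.3 CPM in the model and 110 ± 40.6 CPM in the control libraries (SD, n = 3 each), a log2 fold change of -0.50 (SE 0.31).

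Acaca, which makes the malonyl-CoA that also restrains mitochondrial fatty acid oxidation, had 150, 103 and 85.1 CPM in model 1 to 3, against 92.6, 94.3 and 119 CPM in control 1 to 3. Model 1 was the highest and model 3 the lowest of all 6 libraries, so the controls lay wholly inside the model range. Its log2 fold change was 0.15 (SE 0.26) with an adjusted p of 0.899 in the same edgeR test, and -0.089 with scaling by library totals alone. In the GRCm38 annotation, 30.4% of the 50-base stretches of Acaca transcripts also occur in other genes, most often Gm5182, and the handling of such reads is not given in the sources used here, so its level is uncertain.

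Fasn had 69.6, 157 and 117 CPM in model 1 to 3, against 188, 121 and 285 CPM in control 1 to 3. Model 1 was the lowest and control 3 the highest, while control 2 lay between model 3 and model 2. The means were 115 ± 43.8 CPM in the model and 198 ± 82.3 CPM in the control libraries (SD, n = 3 each). The log2 fold change was -0.79 (SE 0.40, unadjusted p 0.0851, adjusted p 0.851 in the edgeR test).

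The elongases differed in which control library was low or high. Elovl6, which lengthens palmitate to stearate, had 252, 332 and 195 CPM in model 1 to 3, against 365, 490 and 148 CPM in control 1 to 3. Control 1 and 2 were above every model library and control 3 was below every one, so the group ranges overlapped. The means were 260 ± 68.5 CPM in the model and 334 ± 173 CPM in the control libraries (SD, n = 3 each), a log2 fold change of -0.36 (SE 0.44). Of its 50-base stretches 3.98% occur in other genes, most often Olfr2.

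Elovl5, an elongase of polyunsaturated chains, had 29.0, 40.3 and 30.7 CPM in model 1 to 3, against 37.0, 36.5 and 61.9 CPM in control 1 to 3. Control 3 was the highest library, while control 1 and 2 lay below model 2. Elovl5 averaged 33.3 ± 6.11 CPM in the model and 45.1 ± 14.6 CPM in the control libraries (SD, n = 3 each), a log2 fold change of -0.44 (SE 0.27).

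The stearoyl-CoA desaturases had the widest spread of the 10 members. Scd1 had 2.91, 4.76 and 21.9 CPM in model 1 to 3, against 12.6, 4.28 and 295 CPM in control 1 to 3. Control 3 alone held 86.4% of the CPM summed over the 6 libraries and was 35.0 times the mean of control 1 and 2, while control 2 was lower than model 2 and model 3. The highest and the lowest library differed 102-fold. The log2 fold change was -3.40 with an SE of 1.66 and an unadjusted p of 0.0831, with an adjusted p of 0.851 in the edgeR test.

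Scd2 had 30.5, 103 and 25.9 CPM in model 1 to 3, against 83.0, 78.6 and 554 CPM in control 1 to 3. Control 3 held 63.3% of the summed CPM and was 6.86 times the mean of control 1 and 2, and model 2 was above both of these. Scd2 averaged 53.2 ± 43.5 CPM in the model and 238 ± 273 CPM in the control libraries (SD, n = 3 each). Its log2 fold change of -2.16 (SE 0.92) had the smallest unadjusted p of the members, 0.0512, and an adjusted p of 0.851 in the edgeR test. Reads from near-identical stretches could have been split or dropped, since 4.56% of the 50-base stretches of Scd1 and 3.97% of those of Scd2 occur in other genes, most often in each other.

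Fads1 and Fads2, both on chromosome 19, encode the desaturases of polyunsaturated chains. Fads1 had 46.0, 77.1 and 47.9 CPM in model 1 to 3, against 87.0, 111 and 38.6 CPM in control 1 to 3. As for Elovl6, control 1 and 2 were above every model library and control 3 was below every one. The means of Fads1 were 57.0 ± 17.4 CPM in the model and 78.8 ± 36.7 CPM in the control libraries (SD, n = 3 each), a log2 fold change of -0.47 (SE 0.40).

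Fads2, which catalyses the first desaturation of essential fatty acids, had 92.9, 139 and 83.9 CPM in model 1 to 3, against 132, 148 and 133 CPM in control 1 to 3. Model 1 and model 3 were below every control, and model 2 lay inside the control range. Fads2 averaged 105 ± 29.5 CPM in the model and 138 ± 8.77 CPM in the control libraries (SD, n = 3 each). The fold between highest and lowest library was smallest for Fads2 (1.76) and nearly the same for Acaca (1.77). The log2 fold change of Fads2 was -0.39 (SE 0.24, unadjusted p 0.141 in the edgeR test).

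**Figure D1:**
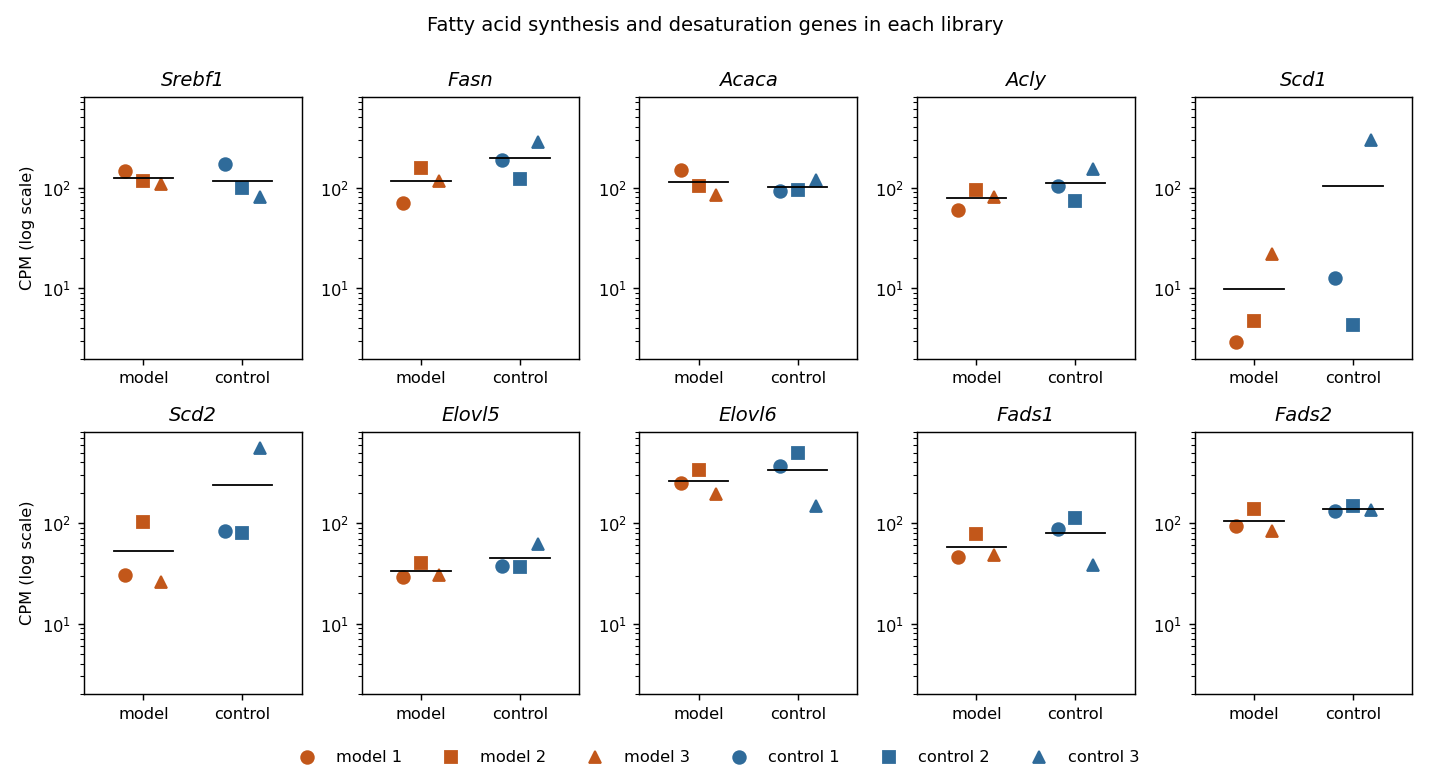
Level of each of the 10 members in CPM (log scale), with 1 point per library, model left of control, and a line at the group mean. The groups overlap in all 10 panels, and control 3 (blue triangle) stands far above the other libraries for Scd1 (295 CPM) and Scd2 (554 CPM) and below them for Elovl6 (148 CPM) and Fads1 (38.6 CPM).

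No member passed the test at an adjusted p under 0.05, and 0% of all 15904 tested genes did, the smallest adjusted p over the table being 0.851. At an unadjusted p under 0.05 edgeR had 0 of the 10 members and 765 of all tested genes. The biological coefficient of variation was 40.7%. DESeq2 called 25 genes (0.157% of those tested), none of them a member, with an adjusted p of 0.400 for Scd2 and no p for Scd1. The fold change was negative for 8 members and positive for 2, with a median of -0.45, beside -0.02 over all tested genes, of which 7663 were positive and 8241 negative. With scaling by library totals alone all 10 members had negative fold changes, with a median of -0.63, beside -0.21 over all tested genes. The adjusted p-values of the members in the edgeR test ran from 0.851 to 0.948. Every model library was above every control for 0 members, beside 4.73% of tested genes, and below every control for 0 members, beside 6.33%. In bulk tissue, fewer cells of a type and less RNA per cell cannot be told apart.

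Set per kilobase of exon, with all annotated transcripts of a gene merged, levels can be compared between members only roughly. Elovl6 was the most abundant, at 40.4 ± 10.7 CPM per kilobase in the model and 51.9 ± 26.9 in the control libraries (SD, n = 3 each). Fads2 came next by the mean over all 6 libraries, at 31.9 ± 8.95 CPM per kilobase in the model and 41.9 ± 2.66 in the control libraries, and these neighbours overlap within their spread. Srebf1, at 22.0 ± 3.51 CPM per kilobase in the model and 20.8 ± 8.48 in the control libraries, was below Fads2 in each of the 6 libraries. Acly (17.9), Fasn (14.3), Fads1 (14.1) and Elovl5 (11.1) came after Srebf1 (21.3) as means over the 6 libraries in CPM per kilobase, and from Acly on these neighbours overlapped within their spread. Acaca was the lowest by that mean, at 6.27 CPM per kilobase. Its merged exons cover 17074 bases and its longest transcript 9513 bases, so its place depends on the length used. The place of Scd2 (26.7) and Scd1 (11.7) in this order rests on control 3. In the model libraries Scd1 averaged 2.02 ± 2.15, Acaca 6.62 ± 1.97 and Scd2 9.74 ± 7.96 CPM per kilobase.

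The library in which a member was highest sorted the 10 into groups. Fasn, Acly, Scd1, Scd2 and Elovl5 were highest in control 3, and Elovl6, Fads1 and Fads2 in control 2, while Srebf1 peaked in control 1 and Acaca in model 1. Control 3 was at the same time the lowest library for Srebf1, Elovl6 and Fads1. Relative to the mean of control 1 and 2, control 3 was 1.84 times as high for Fasn, 1.73 for Acly and 1.69 for Elovl5, but 0.589 for Srebf1, 0.391 for Fads1 and 0.347 for Elovl6. Fads2, at 0.950, hardly differed between them.

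**Figure D2:**
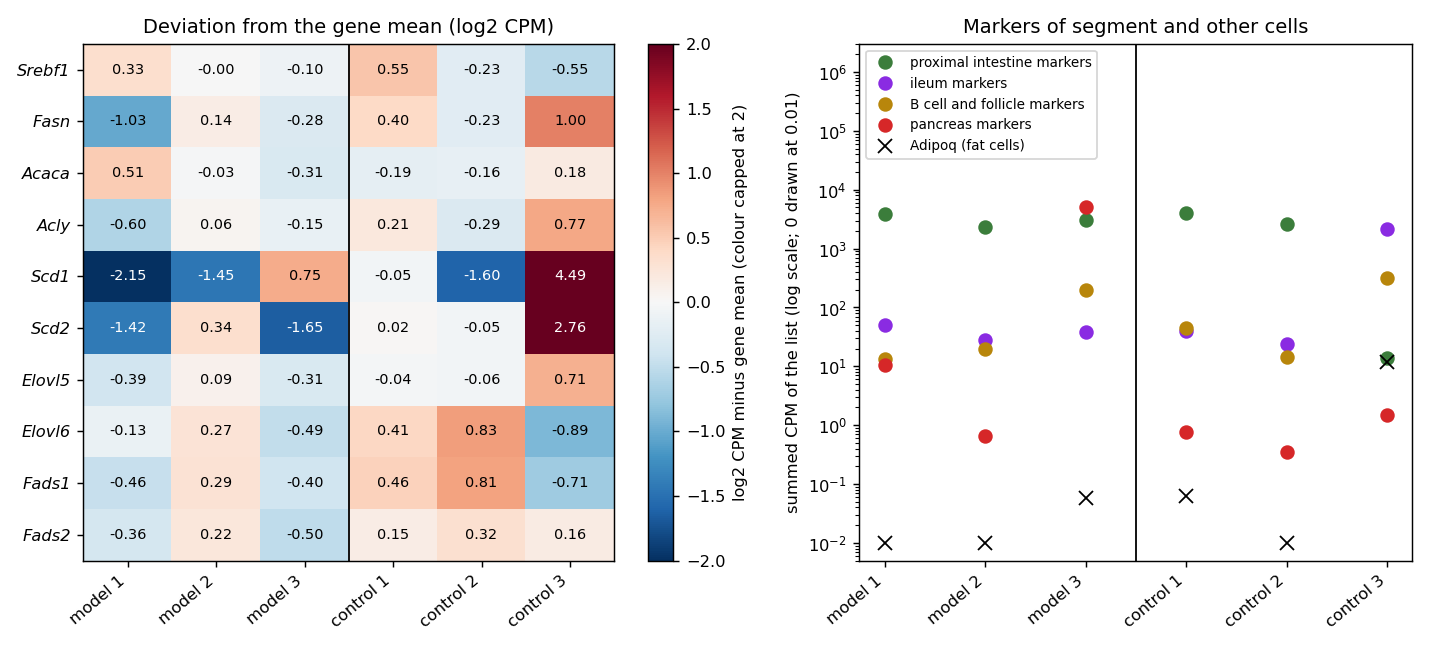
Left, log2 CPM of each member minus its mean over the 6 libraries, with model columns left of control columns. Right, summed CPM of 4 marker lists and the level of the fat cell gene Adipoq in each library (log scale, 0 drawn at the bottom); control 3, where Scd1 lies 4.49 and Scd2 2.76 above their means, is the library with 2180 CPM of ileum markers, 13.7 CPM of proximal markers and 12.0 CPM of Adipoq.

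Genes of the fat cell list were not uniformly high or low in control 3. Adipoq, the fat cell hormone adiponectin, had 0, 0 and 0.057 CPM in model 1 to 3, against 0.0626, 0 and 12.0 CPM in control 1 to 3. The fat droplet coat gene Plin1 had at most 0.342 CPM in the model libraries, against 0.584, 0.561 and 10.6 CPM in control 1 to 3, and adipsin (Cfd) at most 0.796 CPM, against 1.17, 0 and 30.4 CPM. All 12 genes of the list summed to 594, 306 and 390 CPM in model 1 to 3, against 283, 291 and 266 CPM in control 1 to 3, a sum led by Pnpla2 and Cidec. The lipase Pnpla2 had 359, 179 and 219 CPM in model 1 to 3, against 185, 173 and 141 CPM in control 1 to 3. The lipid droplet gene Cidec had 184, 98.5 and 138 CPM in model 1 to 3, against 69.3, 76.5 and 22.2 CPM in control 1 to 3. Both were lowest in control 3, as was Pparg, the regulator of fat cell formation, at 6.93 CPM, so Adipoq, Plin1 and Cfd were highest and these 3 lowest in the same library. Leptin (Lep) was at 0 in the model libraries and at most 0.356 CPM in the controls, and Lipe was listed at 0 in every library. Of the 8 list genes that were tested, 0 passed. The part of fat cells and of the intestinal segment in the member values of control 3 was not tested.

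Without control 3, the library that stands apart in its markers, the fold changes of the 2 stearoyl-CoA desaturases lay nearer to 0. The log2 fold change was 0.23 (SE 0.87) for Scd1 and -0.58 (SE 0.58) for Scd2, where it had been -3.40 and -2.16 with all 6 libraries. Fasn came to -0.42, Acly to -0.17 and Elovl5 to -0.12, whereas Elovl6 came to -0.70 (SE 0.30) and Fads1 to -0.78 (SE 0.29). Without control 2 in its place, Elovl6 was at 0.036 and Fads1 at -0.12, so both values rest on which control is left out. Fads2 was at -0.40, Acaca was at 0.29, and Srebf1 was at -0.10.

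Elovl6 and Fads1 were below both remaining controls in every model library, beside 9.18% of 16145 tested genes, and 0 members were above both in every model library, beside 7.38%. No member and no other gene passed the edgeR test without control 3, with adjusted p-values of 1 for all 10 members. Fads1 had an unadjusted p of 0.0309 there, beside 377 genes under 0.05, and Elovl6 0.0508. With model 3, which carries pancreas and B cell markers, left out as well, Fads1 was at -0.69, Elovl6 at -0.55, Scd1 at -1.14 and Scd2 at -0.27, and the median of the members was -0.27. The median without control 3 alone was -0.28.

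Model 1 was the lowest library for Fasn, Acly, Scd1 and Elovl5 and the highest for Acaca. Over all genes, long transcripts were low in model 1. Of 5 equal bins of genes by transcript length, the longest (5174 bases and up) had a median log2 deviation from the gene's own mean of -0.45 in model 1 and 0.27 in control 3. The shortest bin (up to 1820 bases) had 0.44 in model 1 and -0.20 in control 3. The longest transcripts of the members run from 2782 bases (Elovl5) to 10050 bases (Fasn), with Acaca at 9513 bases. Elovl5 falls in the bin from 1821 to 2793 bases, which had a median of 0.17 in model 1. The part of transcript length in the low member values of model 1 was not tested. The member median of the log2 deviations was -0.42, 0.11 and -0.31 in model 1 to 3, against 0.18, -0.11 and 0.44 in control 1 to 3.

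With the trend on length removed from each library, the same medians were -0.42, 0.08 and -0.44 in model 1 to 3, against 0.14, -0.11 and 0.35 in control 1 to 3. The log2 fold change of Fasn then was -0.50, where it had been -0.79, and that of Acaca 0.56, where it had been 0.15, these being the members with the longest transcripts. Scd1 was at -3.26 and Scd2 at -1.98. None passed the edgeR test, with adjusted p-values of 0.808 to 0.909.

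**Figure D3:**
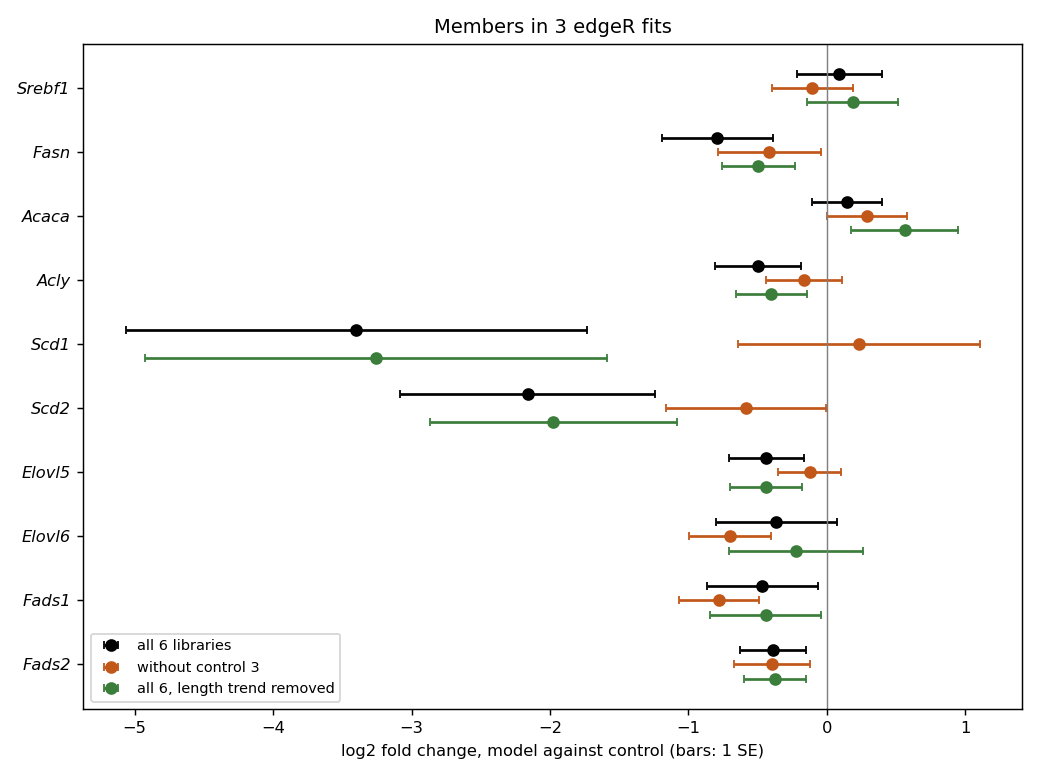
Log2 fold change of the model over the control libraries for each member (bars, 1 SE) with all 6 libraries, without control 3, and with the length trend removed. Scd1 moves to 0.23 and Scd2 to -0.58 without control 3, Elovl6 and Fads1 move away from 0, and Acaca is furthest above 0 once the length trend is removed.

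Ratios of enzymes within a library do not depend on scaling between libraries. The Fasn to Acaca ratio of counts was 0.463, 1.52 and 1.37 in model 1 to 3, against 2.03, 1.28 and 2.39 in control 1 to 3, and model 1 was the lone library in which Acaca had more counts than Fasn. The Fads2 to Fads1 ratio was 2.02, 1.80 and 1.75 in model 1 to 3, against 1.52, 1.34 and 3.44 in control 1 to 3. Every model library was above control 1 and 2 and below control 3.

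The Elovl6 to Elovl5 ratio was 8.70, 8.23 and 6.37 in model 1 to 3, against 9.87, 13.4 and 2.39 in control 1 to 3. Control 3 was the lowest by far, and control 1 and 2 lay above every model library. The Scd1 to Scd2 ratio was 0.0960, 0.0462 and 0.846 in model 1 to 3, against 0.152, 0.0546 and 0.533 in control 1 to 3. Scd2 had more counts than Scd1 in every library, and the ratio was highest in model 3 and control 3. The difference in mean log2 ratio, model minus control, was -0.90 for Fasn to Acaca with a two-sided exact permutation p of 0.3 (-0.35 without model 1), and -0.08, -0.05 and 0.17 for Scd1 to Scd2, Fads2 to Fads1 and Elovl6 to Elovl5, each with an exact p of 1. Adjusted over the 4 ratios all were 1, and 3 libraries against 3 cannot give a p below 0.1.

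**Figure D4:**
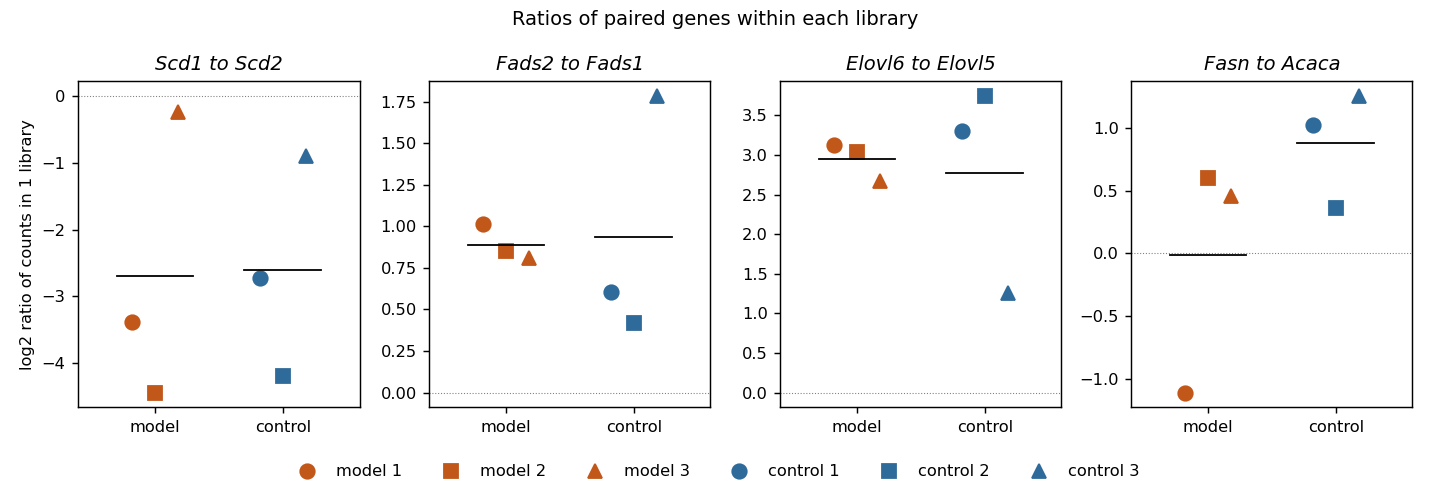
Log2 ratio of the counts of 2 members in each library, with model left of control and a line at the group mean; the dotted line marks equal counts. Control 3 is the highest library for Fads2 to Fads1 (1.78) and the lowest for Elovl6 to Elovl5 (1.26), and model 1 is the lowest for Fasn to Acaca (-1.11).

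The upstream regulators gave 0 calls among 15 tested genes, beside 0% of all tested genes, with 7 positive and 8 negative fold changes and a median of -0.02. Srebf2, the paralogue of Srebf1 that mainly drives cholesterol synthesis, had 144, 215 and 172 CPM in model 1 to 3, against 241, 218 and 312 CPM in control 1 to 3. All model libraries were below all controls, with a log2 fold change of -0.54 (SE 0.25, unadjusted p 0.0641). Prkaa2, a catalytic subunit of AMP-activated kinase, which phosphorylates and inhibits acetyl-CoA carboxylase, had 33.8, 38.6 and 40.3 CPM in model 1 to 3, against 42.4, 52.3 and 86.8 CPM in control 1 to 3. It too was lower in every model library, with a log2 fold change of -0.69 (SE 0.29), an unadjusted p of 0.0445 and an adjusted p of 0.851 in the edgeR test. Without control 3 these fold changes were -0.36 for Srebf2 and -0.32 for Prkaa2. The other catalytic subunit, Prkaa1, was at -0.52. Every model library was below every control for 2 of the 15 regulators, beside 6.33% of all tested genes, and above for 0, beside 4.73%.

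The machinery that holds or releases SREBP precursors had log2 fold changes of -0.02 for the escort Scap, -0.03 for the protease Mbtps1, -0.31 for the protease Mbtps2, -0.38 for the retention factor Insig1 and 0.36 for its relative Insig2. Insig1 was at -0.010 without control 1, and Insig2 at 0.14 without model 1. Insig1 had 86.8, 80.6 and 86.9 CPM in model 1 to 3, against 160, 103 and 68.3 CPM in control 1 to 3, an order among controls like that of Srebf1. Mlxipl, the carbohydrate-sensing activator ChREBP, had 245, 201 and 220 CPM in model 1 to 3, against 274, 225 and 70.1 CPM in control 1 to 3, so control 3 stood alone at the bottom. Its log2 fold change was 0.23 with all libraries and -0.15 without control 3. Its partner Mlx was at 0.19. The oxysterol receptors Nr1h2 and Nr1h3 were at 0.36 and 0.35 and their partner Rxra at 0.35, none past the test.

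Thrsp and Mid1ip1 encode related proteins that promote lipogenesis, the product of Mid1ip1 by binding acetyl-CoA carboxylase. Thrsp had 4.19, 2.40 and 2.82 CPM in model 1 to 3, against 1.94, 1.12 and 8.69 CPM in control 1 to 3. Every model library was above control 1 and 2, and control 3 was the highest, the log2 fold change being -0.32 with all libraries and 1.05 without control 3. Mid1ip1 was at 0.17.

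The genes that supply acetyl-CoA and NADPH gave 0 calls among 9 tested, with 6 positive and 3 negative fold changes and a median of 0.18. Cs, the citrate synthase, averaged 939 ± 34.5 CPM in the model and 710 ± 231 CPM in the control libraries (SD, n = 3 each), a log2 fold change of 0.40. Idh1, a cytosolic source of NADPH, averaged 543 ± 232 CPM in the model and 342 ± 155 CPM in the control libraries, a log2 fold change of 0.67. G6pdx was listed at 0 in every library. Of the genes on all lists, 5 were at 0 in every library, among them the enterocyte marker Fabp2. Whether such a 0 reflects expression or counting was not tested.

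The other elongases, desaturases and their electron carriers gave 0 calls among 17 tested, with 10 positive and 7 negative fold changes and a median of 0.11. Cyb5r3, the reductase that feeds electrons through cytochrome b5 to the desaturases, had 1330, 850 and 876 CPM in model 1 to 3, against 716, 809 and 84.9 CPM in control 1 to 3. All model libraries were above all controls, and control 3 was far below the other 5. Its log2 fold change was 0.93 (SE 0.71), and 0.44 without control 3. Cyb5b, an outer mitochondrial membrane cytochrome b5, was at 0.63. Hacd1, a dehydratase of the elongation cycle, was below every control in each model library, at 17.3 to 20.3 CPM against 21.7 to 27.4 CPM. Its log2 fold change was -0.34 (SE 0.19, unadjusted p 0.11 in the edgeR test). Of the 17 tested genes, 1 (Cyb5r3) had every model library above every control, beside 4.73% of all tested genes. For 1 (Hacd1) every model library was below every control, beside 6.33%. The Scd1 paralogues Scd3 and Scd4 were too low to test, at up to 0.427 CPM, and Elovl3 was listed at 0 in every library.

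Genes that share LXR or SREBP-1 control with the members gave 0 calls among 8 tested, with 2 positive and 6 negative fold changes and a median of -0.45. Lpcat3, which loads polyunsaturated chains into phospholipids, had 313, 280 and 249 CPM in model 1 to 3, against 264, 269 and 189 CPM in control 1 to 3. The groups overlapped, and its log2 fold change was 0.22 (SE 0.23). Pnpla3 was too low to test, at 0.113 to 0.173 CPM in the model libraries, against 0.334, 0.241 and 3.73 CPM in control 1 to 3.

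The separate mitochondrial pathway of fatty acid synthesis gave 0 calls among 5 tested, with 4 positive and 1 negative fold change and a median of 0.01. Ndufab1, its acyl carrier protein, was at 0.24 and Mecr, its enoyl reductase, at 0.01. Hsd17b8 was listed at 0 in every library.

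All 8 lists of cell type and segment markers, those given above included, gave 0 calls each. Enterocyte markers, led by Apoa1 and Alpi, summed to 35200, 19300 and 24900 CPM in model 1 to 3, against 23600, 20300 and 15900 CPM in control 1 to 3, with model 1 highest and control 3 lowest. The genes of the list did not all follow the sum. Anpep was highest in control 3, at 8570 CPM against 1970 to 3460 CPM in the other libraries. Krt20, at 1900 CPM, lay inside the range of the others (1300 to 1940 CPM). The other tested genes were lowest in control 3, among them Fabp1 and Lct, which are also on the proximal intestine list. Smooth muscle markers, led by Myh11 and Acta2, summed to 1140, 855 and 863 CPM in model 1 to 3, against 1140, 1730 and 1950 CPM in control 1 to 3. Nerve and glia markers, led by Ret and Uchl1, summed to 18.1 to 27.8 CPM in the model and 25.1 to 36.0 CPM in the control libraries. The part of these cell types in the member values was not tested.

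Over the 6 libraries, the member most like the mean log2 CPM of all 10 was Fasn (Pearson r 0.964), followed by Elovl5 (0.962), Acly (0.958) and Scd2 (0.958). Scd1 had an r of 0.802 and Fads2 of 0.638, while Acaca, Fads1, Elovl6 and Srebf1 had -0.0988, -0.0922, -0.299 and -0.507. The mean includes each member and is weighted by the wide range of Scd1 and Scd2. Among all other tested genes the most alike were Tmem268 (r 0.997), Chic1 (0.994), Gypc (0.994), Rnf149 (0.993) and Septin8 (0.993). Chic1 had 4.67, 10.3 and 6.95 CPM in model 1 to 3, against 13.6, 10.6 and 43.2 CPM in control 1 to 3, with control 3 the highest as for Scd2. These values share libraries and depth and describe likeness over 6 points only.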

How the data were processed

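Poly-A RNA of 6 small intestine libraries (3 model, 3 control) was sequenced, per the labels' protocols. FastQC, Trimmomatic, STAR and featureCounts were used with build GRCm39, per the submitters' processing notes; the notes hold no versions, annotation, strand or multi-mapping settings. The authors deposited raw counts, whole numbers per gene and library, and all 6 columns matched a sample (0 unmatched). Genes were filtered with filterByExpr, scaled by TMM and tested with edgeR 4.0.16 (R 4.3.3, quasi-likelihood F test, robust dispersion, group as the sole term), adjusted over all 15904 tested genes, with a threshold of 0.05. The steps were tested on simulated data with less spread between libraries than these data and no outlying library, so that test says nothing of their sensitivity here. Log2 deviations used a prior count of 2, and ratios added 0.5 to each count. DESeq2 1.42.0 and voom (limma 3.58.1), other scalings, filters and left-out libraries were alternatives. Library pairs within a group differed by a chi-square per degree of freedom of 99.29 to 428, so none was a duplicate. Lengths and shared 50-base stretches came from GENCODE M21 (build GRCm38), with lengths for 96.6% of tested genes.

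Named were all members, all 15 regulators, the 2 most abundant genes of each other list (1 of them is not reported here), and the 5 genes most like the members' mean; further genes (Hacd1, Pnpla3, Adipoq, Plin1, Cfd, Lep, Pparg, and genes listed at 0 or too low to test) were chosen after their values were seen. The members and all other gene lists were chosen with earlier results of these data known.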

Additional observations from a re-analysis of the deposited data

How the results depend on the processing

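No member was called under any of the 18 alternatives, 3 of which (control 3 and model 3 left out, DESeq2 without control 3, and the transcript length trend removed) were chosen after seeing the data. The median log2 fold change of the members stayed between -0.64 and -0.27. The genes called over the whole table numbered 0 with edgeR, 25 with DESeq2 and 21 with DESeq2 without control 3; the cause was not tested. Several fold changes turned their sign, most of them near 0 with all libraries, but also that of Scd1. With library totals alone they were -0.11 for Srebf1, -0.089 for Acaca, -0.014 for Mlx, -0.040 for Mid1ip1 and -0.18 for Mecr. Mecr was at -0.062 with upper-quartile scaling, -0.017 with at least 5 CPM in at least 3 libraries, -0.065 with DESeq2 without control 3 and -0.10 with the length trend removed. Scap was at 0.017 with RLE scaling and with DESeq2, and 0.065 with the trend removed. Mbtps1 was at 0.0010 with RLE scaling, 0.0011 with DESeq2, 0.016 with DESeq2 without control 3 and 0.16 with the trend removed. Thrsp was at 0.15 with voom and 0.23 with the replicate block. With control 3 and model 3 left out, Srebf1 was at -0.042, Mlxipl at -0.17 and Thrsp at 1.09. With DESeq2 without control 3, Srebf1 was at -0.10, Scd1 at 0.24, Mlxipl at -0.15 and Thrsp at 1.05.

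Leaving out each library in turn gave ranges that cross 0 for Acaca (-0.12 to 0.32), Elovl6 (-0.70 to 0.036), Scd1 (-4.75 to 0.23), Srebf1 (-0.10 to 0.48), Mbtps1 (-0.12 to 0.088), Mecr (-0.069 to 0.12), Mid1ip1 (-0.037 to 0.32), Mlx (-0.013 to 0.36), Mlxipl (-0.15 to 0.59), Ndufab1 (-0.076 to 0.53), Scap (-0.084 to 0.039) and Thrsp (-0.74 to 1.05). The log2 ratio differences ranged over -0.58 to 0.66 for Elovl6 to Elovl5, -0.30 to 0.38 for Fads2 to Fads1, -1.30 to 0.80 for Scd1 to Scd2 and, without crossing 0, -1.21 to -0.35 for Fasn to Acaca. Ranges that did not cross 0 included Fads1 (-0.78 to -0.12), Scd2 (-3.07 to -0.58), Fasn (-1.08 to -0.42), Acly (-0.71 to -0.17), Elovl5 (-0.59 to -0.12), Fads2 (-0.64 to -0.25), Insig1 (-0.62 to -0.010), Insig2 (0.14 to 0.51), Nr1h2 (0.16 to 0.49), Nr1h3 (0.10 to 0.52), Prkaa1 (-0.76 to -0.18) and Prkaa2 (-0.88 to -0.32). Elovl6 was above 0 without control 2, Scd1 without control 3, Srebf1 was below 0 without control 3 or model 1, and Acaca without model 1.

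Same-numbered libraries did not all deviate together (correlations -0.153, -0.266 and 0.309 for numbers 1 to 3), so the numbers were not read as pairs. Control 3 and model 3 did correlate best with each other. With the replicate block 0 genes were called, 537 had an unadjusted p under 0.05, and the member median was -0.41. Single members moved more: Scd1 was at -1.95 (SE 0.80) with the block and at -1.90 (SE 1.72) with voom, where it had been -3.40. Not every library correlated best with its own number. The lowest count of any member in any library was 84 (Scd1 in model 1). The biological coefficient of variation of 40.7% is a single value for the whole fit. The parts of depth and of the spread between libraries in the precision were not tested.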
